A study of Mus musculus with 84 samples.

Results

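The 10 genes described here were the mesenchymal transcription factors *Snai1*, *Snai2*, *Twist1*, *Twist2*, *Zeb1*, *Zeb2*, *Prrx1* and *Tbx18* and the mesenchymal cadherins *Cdh2* and *Cdh11*. They were taken by symbol from a table of read counts for 18909 genes, and all 10 had a row. Expression was measured by STRT RNA-seq, which tags the 5′ end of transcripts, in 10 groups of 3 biological replicates, and the wells of each replicate were added up to give 30 libraries. MEFs, which are mouse embryonic fibroblasts, were wild-type cells of 129 background kept in FGF2 (5 ng/ml) with heparin (1 ng/ml). ESCs, which are embryonic stem cells, were of the TNG MKOS line and kept in LIF (100 U/ml).

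The reprogramming cells were MEFs from chimeric embryos made with that 1 TNG MKOS line, plated with an excess of wild-type MEFs. The line carries a *Nanog*-GFP reporter that inactivates 1 *Nanog* allele, and a doxycycline-inducible MKOS-ires-mOrange cassette (*c-Myc*, *Klf4*, *Oct4* and *Sox2*) with a CAG promoter-driven rtTA in the *Sp3* locus. The cells were infected with a retroviral vector for BFP, the control, or for Smad3CA, a constitutively active form of the TGF-β signal transducer SMAD3 (Sm3CA). They were reprogrammed in LIF medium with 300 ng/ml doxycycline and 10 µg/ml vitamin C, and cells expressing mOrange were sorted after 3, 6, 8 or 10 days. The MEFs were thus neither transgenic, infected nor sorted, so a difference from MEFs holds genotype, infection, medium and sort as well as time.

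Factors of the Snail, Twist and Zeb families drive the epithelial-to-mesenchymal transition. Snail and Zeb proteins bind E-boxes and repress epithelial genes, among them *Cdh1*, the gene of E-cadherin, and TGF-β signalling through SMAD2 and SMAD3 induces several of these factors in epithelial cells. Reprogramming of fibroblasts passes through the opposite change, a mesenchymal-to-epithelial transition, in which mesenchymal cadherins give way to E-cadherin.

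Values are read counts divided by a size factor for each library (normalized counts). Library totals were 1008596 to 2296059 reads, and 3 reads, at or below which a gene counted as undetected, came to 1.79 to 5.42 normalized counts. *Smad3*, whose counts may hold the endogenous gene and the vector, had 32.8 to 184 normalized counts in the 12 Sm3CA libraries and 5.19 to 25.4 in the 12 BFP libraries. It was called higher in Sm3CA on day 3 (log2 fold change 3.53 ± 0.34, adjusted p = 1.51e-08, edgeR, ± SE). It was also called on days 6 and 8 (adjusted p = 0.00459 and 2.38e-06, edgeR). On day 10 the libraries did not overlap, but *Smad3* was not called (0.997 ± 0.357, adjusted p = 0.12, edgeR). The 8 fibroblast markers summed to 3430 to 4764 in MEFs and 2.57 to 5.48 in ESCs, and the 8 ESC markers to 28333 to 53766 in ESCs and 8.89 to 11.9 in MEFs. In these bulk libraries, fewer cells of a type and less RNA per cell cannot be told apart.

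Because STRT reads start at the 5′ end of transcripts, the bases upstream of the start are shown for 4 members, *Prrx1* and *Zeb2*, which had no read in ESCs, and *Snai1* and *Twist1*, which had 5 reads each there. Of the 10 members, 6 had an entry in the RefSeq promoter table (GRCm38.p6), and *Snai2*, *Zeb1*, *Cdh2* and *Cdh11* had none. The windows lay on chr1:163313711-163313900 (minus strand) for *Prrx1*, chr2:45117443-45117692 (minus strand) for *Zeb2*, chr2:167537945-167538194 (plus strand) for *Snai1* and chr12:33957421-33957670 (plus strand) for *Twist1*. Each had 250 bases, except that of *Prrx1*, which ended after 190 bases where the annotated gene begins. For *Zeb2*, with 4 starts in the table, the most upstream one was used. Capitals mark E-boxes (CANNTG on either strand, of which CACCTG, read CAGGTG on the other strand, is the form bound by Snail and Zeb proteins) and the SMAD-binding letters CAGAC, read GTCTG on the other strand.
Prrx1: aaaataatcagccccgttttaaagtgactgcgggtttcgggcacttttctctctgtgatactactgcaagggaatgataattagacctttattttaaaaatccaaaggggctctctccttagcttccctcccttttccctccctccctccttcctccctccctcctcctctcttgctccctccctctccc
Zeb2: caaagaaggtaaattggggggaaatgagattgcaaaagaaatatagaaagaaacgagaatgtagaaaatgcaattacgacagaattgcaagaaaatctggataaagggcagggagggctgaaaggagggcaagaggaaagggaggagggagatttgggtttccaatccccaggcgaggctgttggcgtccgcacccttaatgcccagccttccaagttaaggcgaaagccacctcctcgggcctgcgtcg
Snai1: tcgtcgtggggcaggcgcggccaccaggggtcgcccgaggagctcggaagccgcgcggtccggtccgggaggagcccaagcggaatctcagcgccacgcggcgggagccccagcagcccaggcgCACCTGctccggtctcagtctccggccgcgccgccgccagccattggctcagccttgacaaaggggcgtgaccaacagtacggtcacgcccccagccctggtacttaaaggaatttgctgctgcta
Twist1: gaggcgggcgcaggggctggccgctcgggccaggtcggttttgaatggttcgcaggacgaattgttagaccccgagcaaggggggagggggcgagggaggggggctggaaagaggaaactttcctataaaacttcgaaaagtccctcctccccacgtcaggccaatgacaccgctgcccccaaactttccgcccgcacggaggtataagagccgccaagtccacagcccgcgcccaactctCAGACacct
The *Snai1* window held 1 E-box, of the CACCTG form, the *Twist1* window held CAGAC once, and the other windows held neither motif. Of 32807 windows of 250 bases in the table, 66.2% held CANNTG, 17.2% held CACCTG and 42.2% held CAGAC on either strand, and over 190 bases these shares were 57.3%, 13.8% and 34.6%. A match describes the letters and is not a binding site.

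All 10 members were lower in ESCs than in MEFs (adjusted p at most 0.000652, edgeR), where 30.5% of the 10979 genes tested were lower. In each member all 3 ESC libraries lay below all 3 MEF libraries, as they did in 3419 of the 10979 genes tested. *Snai2*, *Twist2*, *Zeb2*, *Prrx1* and *Tbx18* had no read in any ESC library and *Cdh11* had 1 read in all 3 together. *Snai1* and *Twist1* had 5 reads each in the 3 ESC libraries, which left 9.15% ± 12.4 and 12.996% ± 17.7 of the MEF mean (SD, n = 3), means below the level of 3 reads. *Zeb1*, with 15 reads, and *Cdh2*, with 26, kept 16.1% ± 14.2 and 11.9% ± 5.43.

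**Figure D1:**
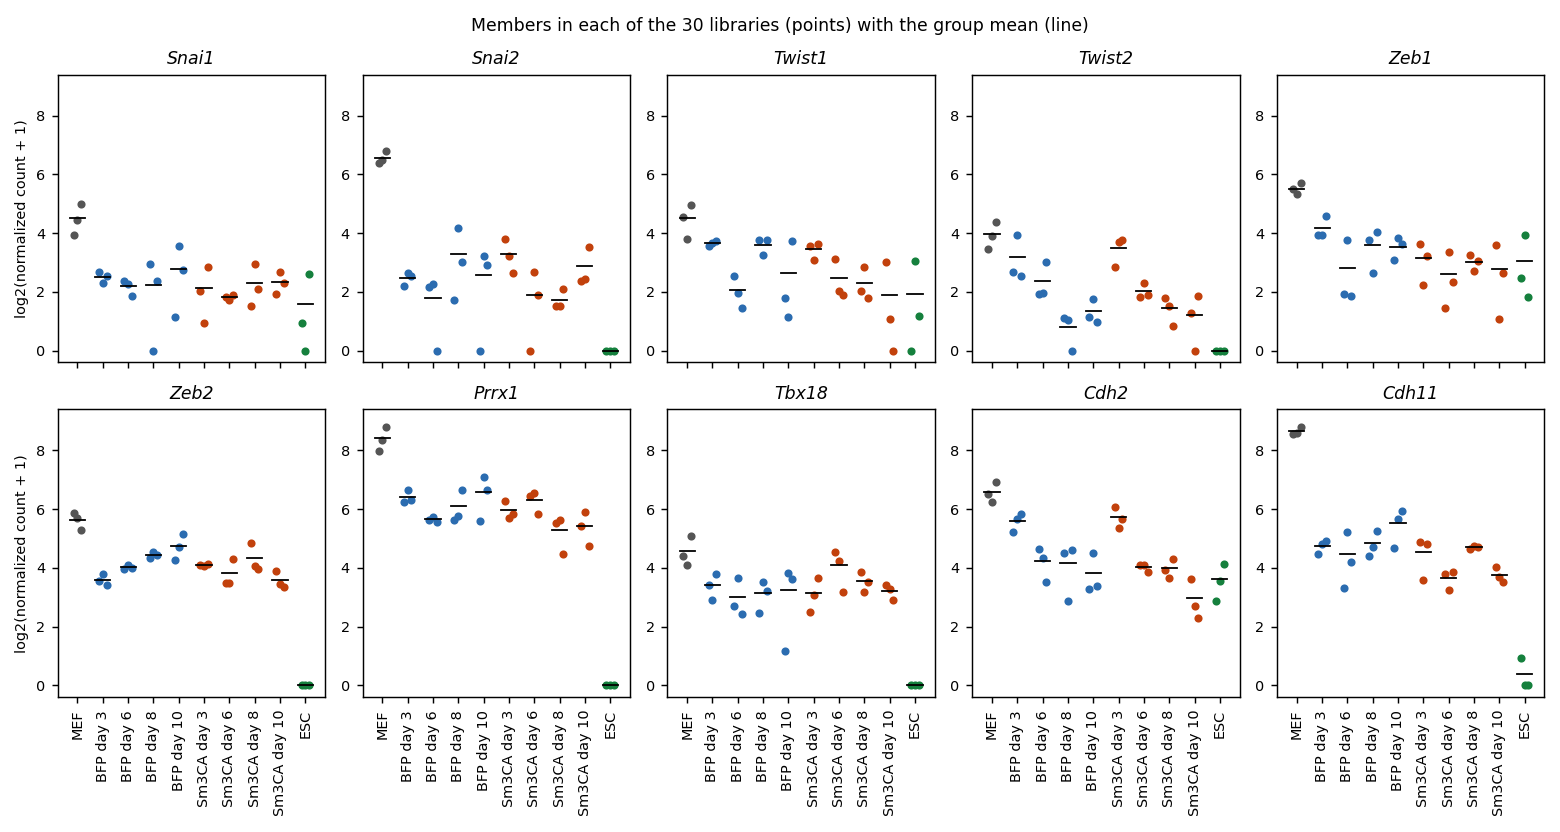
Normalized counts of the 10 members on a log2(normalized count + 1) axis in each of the 30 libraries (points, 3 per group) with group means (lines), from MEFs through BFP and Sm3CA on days 3, 6, 8 and 10 to ESCs. Every member has its highest mean in MEFs, and *Snai2*, *Twist2*, *Zeb2*, *Prrx1* and *Tbx18* are at 0 in all 3 ESC libraries.

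The Snail family repressors were low from the first day measured. *Snai2* (chromosome 16, 14705852 to 14709385, plus strand, mm10) had 82.2, 87.9 and 109.8 normalized counts in the MEF libraries. On day 3 it had 3.57, 5.19 and 4.88 in BFP and 13.05, 8.35 and 5.22 in Sm3CA. All reprogramming libraries thus lay below all MEF libraries, and *Snai2* was 20.5-fold lower than in MEFs in BFP (log2 fold change -4.22 ± 0.59, adjusted p = 2.13e-07, edgeR, ± SE) and 10.5-fold lower in Sm3CA (-3.23 ± 0.53, adjusted p = 4.68e-06). Its later group means were 2.31 to 8.77 normalized counts. ESCs had no read, at least 23.3-fold below MEFs when each ESC library is taken at 3 reads.

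*Snai1* (chromosome 2, 167538195 to 167542814, plus strand) had 14.4, 20.6 and 31.1 normalized counts in MEFs and 5.35, 3.89 and 4.88 in BFP on day 3. It was lower in BFP (-2.08 ± 0.67, adjusted p = 0.011), a call lost without MEF replicate 3 (adjusted p = 0.0742). In Sm3CA on day 3 it had 3.07, 0.927 and 6.26 and was also lower (-2.58 ± 0.70, adjusted p = 0.00267). Its later means, 2.53 to 5.88 normalized counts, were near the level of 3 reads. ESCs had 0.913, 0 and 5.14, and no difference between ESCs and day 10 was called (adjusted p = 0.181 against BFP and 0.424 against Sm3CA).

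The Twist factors, basic helix-loop-helix proteins of mesoderm and neural crest, had the highest shares of their MEF mean among the members in BFP on day 3. *Twist1* (chromosome 12, 33957671 to 33959829, plus strand) had 22.2, 13.03 and 30.2 normalized counts in MEFs and 10.7, 11.7 and 12.2 in BFP on day 3. All 3 BFP values lay below the MEF values, but the difference did not pass the test (-0.81 ± 0.59, adjusted p = 0.279). In BFP it had 4.85, 2.87 and 1.76 on day 6 and 12.5, 8.44 and 12.5 on day 8, and neither step passed (adjusted p = 0.148 and 0.349). In ESCs it had 0, 7.23 and 1.29, 7.69-fold below MEFs (-3.16 ± 0.79, adjusted p = 0.000652).

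*Twist2* (chromosome 1, 91801461 to 91848028, plus strand) had few reads already in MEFs, 9.999, 14.1 and 19.9 normalized counts. On day 3 it kept 55.7% ± 36.1 (SD, n = 3) of the MEF mean in BFP and 69.8% ± 24.3 in Sm3CA, neither called (adjusted p = 0.306 and 0.584). On day 8 it had 2 reads in the 3 BFP libraries together. The ratio of reads between days 6 and 8 in BFP, allowing for library size, was a 7.25-fold fall with a 95% exact counting interval of 1.69 to 65.4, and it did not pass the edgeR test (adjusted p = 0.294). PCR reads are not independent molecules, so such intervals and limits cover counting error only. In ESCs *Twist2* had no read, at least 3.66-fold below MEFs.

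The Zeb repressors, zinc finger homeobox proteins that act on *Cdh1* and other junction genes, had no read (*Zeb2*) and some reads (*Zeb1*) in ESCs. *Zeb2* (chromosome 2, 44983632 to 45117395, minus strand) had 57.8, 51.02 and 38.03 normalized counts in MEFs. On day 3 it had 10.7, 12.97 and 9.75 in BFP and 16.1, 15.8 and 16.7 in Sm3CA, 4.39-fold lower than MEFs in BFP (-2.02 ± 0.36, adjusted p = 1.62e-05) and 3.02-fold lower in Sm3CA (-1.47 ± 0.34, adjusted p = 0.000577). In BFP its means on days 6, 8 and 10 were 15.2 ± 0.912, 20.8 ± 1.46 and 26.2 ± 8.23 (SD, n = 3). The day 6 libraries all lay above those of day 3 and the day 8 libraries above those of day 6, but no single step passed the test (adjusted p = 0.57, 0.784 and 0.821). ESCs had no read, at least 6.53-fold below BFP on day 10 (adjusted p = 9.6e-10, edgeR).

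*Zeb1* had 44.4, 39.1 and 50.99 normalized counts in MEFs and 14.3, 14.3 and 22.8 in BFP on day 3. It was lower in BFP (-1.25 ± 0.49, adjusted p = 0.034), but not without BFP day 3 replicate 1 or 2 or MEF replicate 1 or 3 (adjusted p = 0.0517 to 0.103). In Sm3CA on day 3 it had 11.5, 3.71 and 8.35 and was lower (-2.36 ± 0.53, adjusted p = 0.000343). Its later group means were 5.02 to 11.1. ESCs, with 4.57, 14.5 and 2.57, overlapped both day 10 groups, and neither difference was called (adjusted p = 0.381 for BFP and 0.854 for Sm3CA).

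*Prrx1* and *Tbx18*, factors of limb and other embryonic mesenchyme, were read in every reprogramming library and in no ESC library. *Prrx1* (chromosome 1, 163245119 to 163313710, minus strand) had 253, 325 and 445 normalized counts in MEFs. Day 3 libraries had 75.8, 98.6 and 78.03 in BFP and 75.99, 51.01 and 56.3 in Sm3CA, 4.05-fold lower than MEFs in BFP (-1.91 ± 0.30, adjusted p = 1.87e-06) and 5.58-fold lower in Sm3CA (-2.36 ± 0.31, adjusted p = 4.58e-08). In Sm3CA it went from 85.5, 93.1 and 56.7 on day 6 to 45.1, 49.02 and 20.99 on day 8, and the libraries did not overlap. This step did not pass the test (-1.04 ± 0.32, adjusted p = 0.0645). It did with the replicate number as a block, as the series' design pairs replicates over days (-1.06, adjusted p = 0.0377, edgeR). The deviations of same-numbered Sm3CA libraries from their group means had a mean correlation of only 0.0122, so the pairing was not seen in the counts. *Prrx1* was at least 85.1-fold lower in ESCs than in MEFs and at least 23.6-fold lower than in BFP on day 10.

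*Tbx18* (chromosome 9, 87702800 to 87731260, minus strand) had 19.997, 16.3 and 32.8 normalized counts in MEFs. On day 3 it had 9.81, 6.49 and 13.01 in BFP, which did not pass (-1.09 ± 0.51, adjusted p = 0.0796), and 4.61, 7.42 and 11.5 in Sm3CA, which did (-1.48 ± 0.52, adjusted p = 0.0204). The Sm3CA call was lost without MEF replicate 3 (adjusted p = 0.14) or Sm3CA day 3 replicate 1 (adjusted p = 0.0958). On day 6 *Tbx18* had 5.54, 11.5 and 4.39 in BFP and 22.2, 17.9 and 8.1 in Sm3CA, which overlapped. These were 31% ± 16.5 and 69.7% ± 31.4 of the MEF mean (SD, n = 3), and edgeR did not call the difference between the vectors. On day 8 it kept 33.9% ± 13.2 in BFP and 46.4% ± 12.2 in Sm3CA. On day 10 it kept 37.2% ± 27.8 of the MEF mean in BFP and 36.3% ± 7.31 in Sm3CA (SD, n = 3). ESCs were at least 5.75-fold below MEFs.

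Both cadherins, calcium-dependent adhesion proteins, were lower in BFP on day 3 than in MEFs, and *Cdh2* fell again by day 6. *Cdh11* (chromosome 8, 102632095 to 102785642, minus strand), which encodes cadherin-11 of mesenchyme and bone-forming cells, had 376, 388 and 442 normalized counts in MEFs. By day 3 it was at 21.4, 27.2 and 29.3 in BFP and 28.4, 11.1 and 27.1 in Sm3CA, 15.5-fold lower than MEFs in BFP (-3.83 ± 0.32, adjusted p = 5.4e-13) and 18.1-fold lower in Sm3CA (-4.05 ± 0.33, adjusted p = 1.51e-13). Its means on days 6, 8 and 10 were 20.98, 27.6 and 45.1 in BFP and 11.6, 24.95 and 12.6 in Sm3CA. In ESCs the ratio of reads was 982-fold below MEFs, with a counting interval of 176 to 38830.

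*Cdh2*, which encodes N-cadherin, had 89.99, 74.9 and 121 normalized counts in MEFs. After 3 days it had 36.5, 49.3 and 56.1 in BFP, which was lower (-0.90 ± 0.33, adjusted p = 0.0245), though not without MEF replicate 3 or BFP day 3 replicate 1 (adjusted p = 0.153 and 0.102). In Sm3CA it had 66.8, 39.9 and 50.1 and did not pass (-0.75 ± 0.32, adjusted p = 0.0584). *Cdh2* then fell from day 3 to day 6 in both series. In BFP it went to 24.2, 19.1 and 10.5 (-1.37 ± 0.36, adjusted p = 0.0185), a call lost without any 1 of BFP day 3 replicates 2 and 3 and BFP day 6 replicates 2 and 3 (adjusted p = 0.0606 to 0.125). In Sm3CA it went to 16.2, 16.3 and 13.5 (-1.73 ± 0.37, adjusted p = 0.00152), a call kept in each of 12 alternatives. On day 10 it had 8.64, 21.5 and 9.42 in BFP and 11.2, 5.46 and 3.91 in Sm3CA, and ESCs, with 6.39, 10.8 and 16.7, overlapped both.

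On day 3, then, 7 of 10 members were lower than in MEFs in BFP (background 20.9% of genes tested) and 7 in Sm3CA (background 20.7%). Their median log2 fold changes were -1.58 and -1.92, beside 0.00 and 0.00 over all genes tested. Both comparisons share the MEF libraries, and without MEF replicate 3 the BFP count was 4. From day 3 to day 6, *Cdh2* was the 1 member called in BFP (background 1.98% lower) and in Sm3CA (background 5.87% lower). From day 6 to 8 and from day 8 to 10 edgeR called no member in either series. The background in either direction was 0.975% and 1.26% in BFP and 2.85% and 2.05% in Sm3CA. At an unadjusted p under 0.05 there were 3 and 0 members in BFP and 2 and 3 in Sm3CA in these steps. Over all 10979 genes tested, 1063 and 1251 in BFP and 1816 and 1675 in Sm3CA had such a p. The DESeq2 Wald test called 0, 0, 1 and 0 members.

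**Figure D2:**
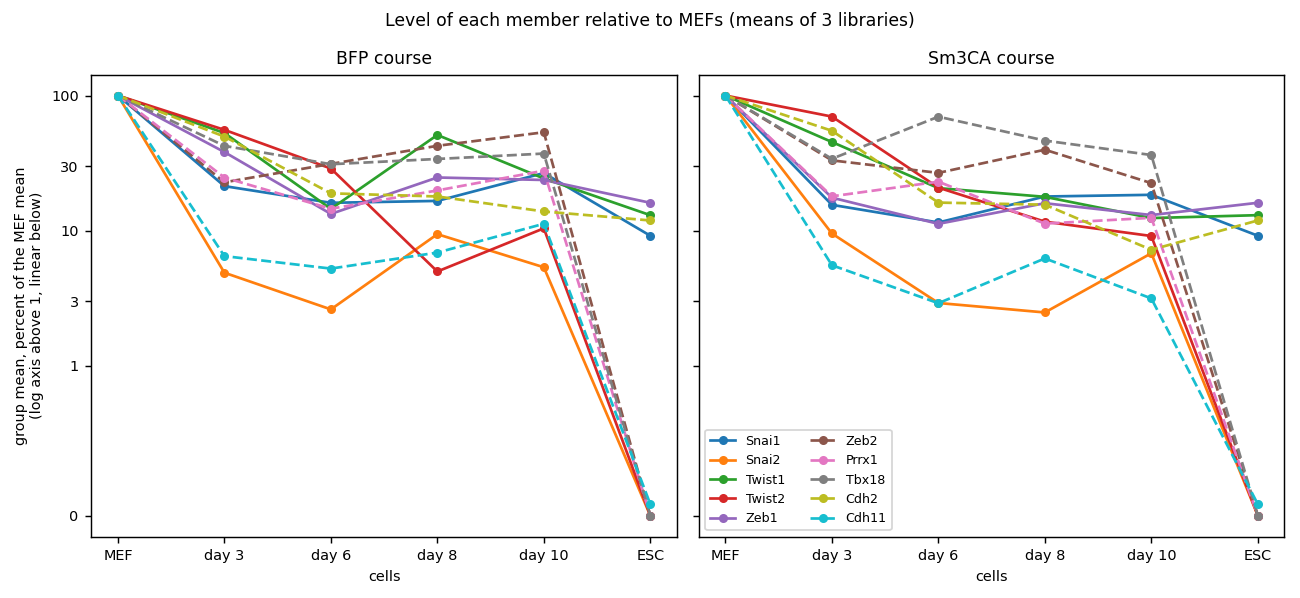
Mean of each member (3 libraries) as a percent of its MEF mean over days 3 to 10 in the BFP and Sm3CA courses and in ESCs. On day 3 in BFP the members range from 4.87% (*Snai2*) to 55.7% (*Twist2*), and *Snai2*, *Twist2*, *Zeb2*, *Prrx1* and *Tbx18* end at 0 in ESCs.

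The median share of the MEF mean in BFP was 31.4%, 15.3%, 18.8% and 23.99% on days 3, 6, 8 and 10, lowest on day 6. In Sm3CA it was 25.5%, 18.4%, 15.7% and 12.4%, lowest on day 10. On day 10 *Zeb2* kept the highest share in BFP, 53.5% ± 16.8, and *Tbx18* the highest in Sm3CA. When the 10 groups were ordered by their means, the library ranges of neighbouring groups overlapped at 7 or 8 of 9 neighbour pairs in each member. Such overlaps were not counted over all genes tested, so this order describes the members and does not set them apart. In *Snai2*, *Zeb2*, *Prrx1* and *Cdh11* both ends of the order, MEFs and ESCs, were separated from their neighbouring group, in *Snai1*, *Twist1* and *Zeb1* the MEFs alone and in *Tbx18* the ESCs alone. *Cdh2* was separated between MEFs and the day 3 groups and again below BFP on day 3, and *Twist2* at 1 place, below Sm3CA on day 6.

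Between day 10 and ESCs, *Cdh11*, *Prrx1*, *Zeb2*, *Snai2* and *Tbx18* were lower in ESCs than in BFP (background 30.3% of genes tested) and than in Sm3CA (background 27.2%), comparisons that share the ESC libraries. *Prrx1* was at least 10.6-fold and *Zeb2* at least 2.74-fold lower in ESCs than in Sm3CA. For *Snai2* the limits were low, 1.24-fold against BFP and 1.58-fold against Sm3CA. The ratio for *Cdh11* was 113-fold against BFP (counting interval 19.9 to 4493) and 30.4-fold against Sm3CA (5.05 to 1239). In fits of only the groups compared fewer members passed the filter, and 3 (*Zeb2*, *Prrx1*, *Cdh11*) and 1 (*Prrx1*) were called.

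Whether Smad3CA changed the members was asked on each day. On days 3, 6 and 8 edgeR called none of the 9 members tested between Sm3CA and BFP, where 0.0195%, 0.00977% and 1.04% of the 10237 genes tested were called. *Snai1* did not pass the filter on low counts in this fit. At an unadjusted p under 0.05 there were 0, 2 and 3 members, beside 523, 426 and 1559 of all 10237 genes tested. The DESeq2 Wald test called 0 members on each of these days. On day 6 *Prrx1* had 85.5, 93.1 and 56.7 normalized counts in Sm3CA and 49.1, 52.7 and 46.6 in BFP, which did not overlap (0.70 ± 0.30, adjusted p = 1). On day 8 it had 45.1, 49.02 and 20.99 and 48.7, 53.8 and 100.2, which did (-0.82 ± 0.30, adjusted p = 0.164). *Twist1* on day 8, with 3.09, 6.13 and 2.42 in Sm3CA and 12.5, 8.44 and 12.5 in BFP, did not overlap and was not called either (-1.47 ± 0.63, adjusted p = 0.237).

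On day 10 *Cdh11* and *Prrx1* were lower in Sm3CA, 2 of 9 members tested beside 2.74% of all genes tested. *Cdh11* had 15.4, 12.02 and 10.4 normalized counts in Sm3CA and 24.7, 50.2 and 60.3 in BFP. All Sm3CA libraries lay below all BFP libraries, and the mean was 3.57-fold lower (-1.83 ± 0.41, adjusted p = 0.00564). *Prrx1* had 42.1, 58.98 and 26.04 in Sm3CA and 46.9, 136 and 101 in BFP, where BFP replicate 1 lay within the Sm3CA range, and its mean was 2.23-fold lower (-1.13 ± 0.32, adjusted p = 0.0373).

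*Zeb2* had 14.02, 9.83 and 9.11 normalized counts in Sm3CA on day 10 and 18.5, 25.1 and 34.9 in BFP. The libraries did not overlap, but the difference did not pass the threshold (-1.25 ± 0.38, adjusted p = 0.0551). *Zeb2* and *Cdh11* were the 2 of 10 members whose Sm3CA libraries all lay below the BFP libraries, beside 11.9% of genes tested. The other 6 members tested had log2 fold changes from -1.10 ± 0.83 (*Twist1*) to 0.32 ± 0.83 (*Snai2*). The median over the 9 members was -0.93, beside -0.01 over all genes tested.

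**Figure D3:**
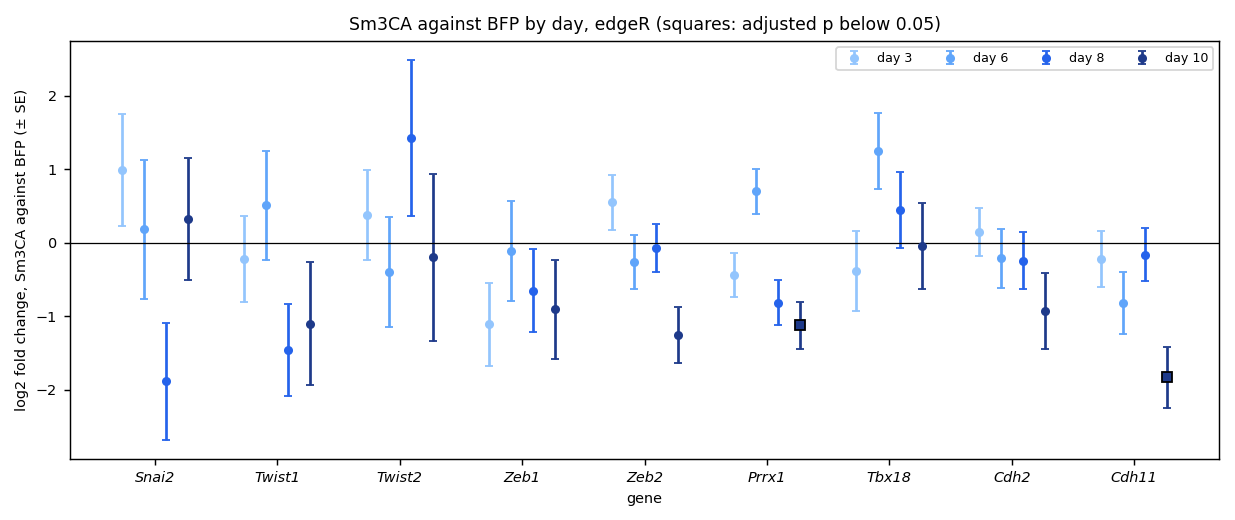
Log2 fold change of Sm3CA against BFP (± SE, edgeR) for the 9 members tested on days 3, 6, 8 and 10, with squares for an adjusted p below 0.05. The squares are those of *Prrx1* (-1.13) and *Cdh11* (-1.83) on day 10.

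These day 10 calls rested on single libraries. *Cdh11* was lost without BFP replicate 3 (adjusted p = 0.0707) and without Sm3CA replicate 3 (0.0526). *Prrx1* was lost without BFP replicate 2 or 3 or Sm3CA replicate 1 or 3 (adjusted p = 0.111 to 0.303) and with the DESeq2 Wald test (adjusted p = 0.0609). Without BFP replicate 1 there were 3 members called, *Zeb2* among them (adjusted p = 0.0305). An exact permutation test of 3 against 3 libraries cannot give a p below 0.1.

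The change of the Sm3CA effect from day 3 to day 10 was tested as an interaction. EdgeR called no member (background 1.01% in either direction), and the DESeq2 Wald test called 0. An unadjusted p under 0.05 was found for 2 of 9 members, beside 1236 of 10237 genes tested. The 2 members were *Zeb2*, with a change of -1.80 ± 0.53, adjusted p = 0.0961, and *Cdh11*, with -1.61 ± 0.57, adjusted p = 0.188 (edgeR). A difference between the days was therefore not shown.

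Markers of other cells were summed beside these results. On day 10 the 5 macrophage markers in the table summed to 589, 2576 and 2421 normalized counts in BFP replicates 1, 2 and 3 and to 925, 845 and 1546 in Sm3CA, and the 8 fibroblast markers to 1044, 1839 and 1891 and 1189, 1064 and 1004. Both sums overlapped between the vectors, and 3 of 7 fibroblast markers tested were lower in Sm3CA (background 2.74%). BFP replicate 1 was the lowest BFP library in both sums and in *Cdh11*, *Prrx1* and *Zeb2*. The ESC markers summed to 573, 385 and 945 in BFP and 973, 1108 and 2225 in Sm3CA, which did not overlap. Of 6 ESC markers tested 3 were higher in Sm3CA, beside 85 of 10237 genes tested. They were *Tfcp2l1*, *Dppa5a* and *Zfp42* (1.40 ± 0.41, 1.35 ± 0.33 and 1.03 ± 0.25). The part of all these markers in the *Cdh11*, *Prrx1* and *Zeb2* results was not tested. *Zeb2* is also expressed in macrophages, whose markers summed to 457 to 1912 in MEFs and 12.9 to 34.3 in ESCs, where *Ptprc*, *Csf1r* and *Tyrobp* had no read.

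**Figure D4:**
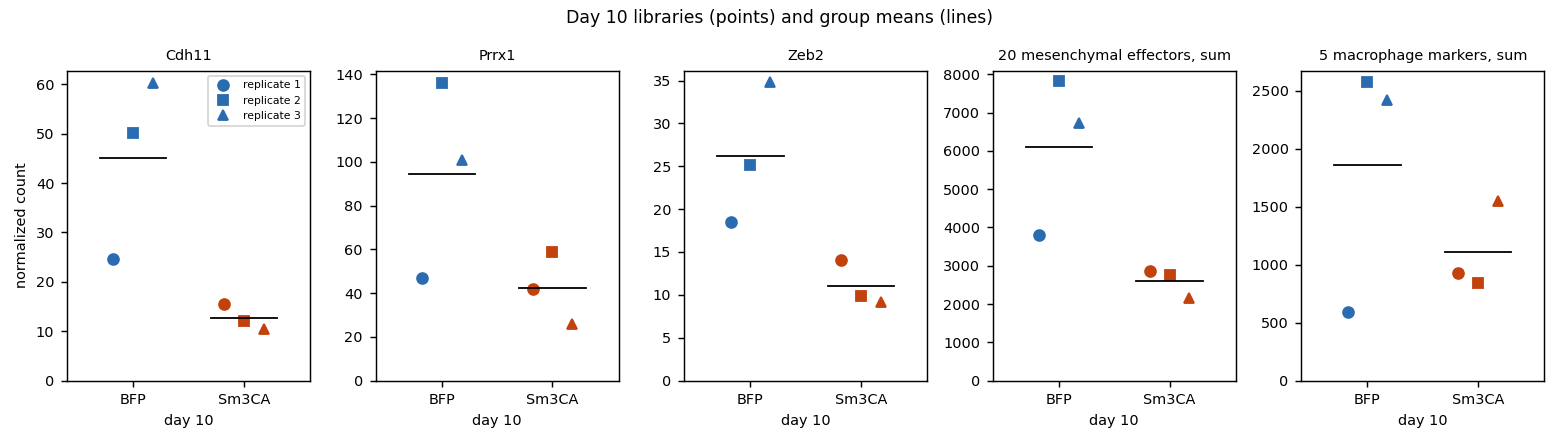
Normalized counts on day 10 of *Cdh11*, *Prrx1* and *Zeb2* and summed normalized counts of 20 mesenchymal effectors and 5 macrophage markers, for each BFP and Sm3CA library by replicate number, with group means as lines. BFP replicate 1 is the lowest BFP library in every panel.

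Of the other markers, the 10 neural genes summed to 257 to 331 normalized counts in MEFs, 1943 to 7238 in the reprogramming groups and 1104 to 1679 in ESCs. A group mean above the level of 3 reads was found for 4 of them in MEFs, 5 to 8 in the reprogramming groups and 4 in ESCs. Of 7 tested, 3 were higher in BFP on day 3 than in MEFs and 2 in Sm3CA, beside 2480 and 2459 of 10979 genes tested. On day 10 they summed to 3111, 2743 and 2906 in BFP and 3880, 3124 and 2335 in Sm3CA. The 6 endothelial genes summed to at most 32.1 in any library, and at most 2 of them had a group mean above the level of 3 reads in any group. The 5 skeletal muscle genes in the table summed to 589 to 893 in MEFs and to at most 38.9 elsewhere. The part of these cells in the fall of the members from MEFs was not tested.

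Most epithelial counterparts tested were higher in ESCs than in MEFs, though many were lower in ESCs than on day 10. *Cdh1* had 0, 0 and 2.59 normalized counts in MEFs, 14.3, 14.3 and 25.2 in BFP on day 3 and 165, 154 and 134 on day 6. It was higher in BFP on day 3 than in MEFs (4.15 ± 0.58, adjusted p = 1.35e-07, edgeR). It rose again from day 3 to day 6 (3.04 ± 0.28, adjusted p = 6.42e-10). *Cdh2* was called lower in both steps, and both *Cdh2* calls were lost without single libraries. *Epcam*, an epithelial adhesion gene, had no read in MEFs and means of 8.93 ± 6.34 and 66.6 ± 14.5 in BFP on days 3 and 6 (SD, n = 3). Of 24 listed epithelial genes 22 were tested, of which 15 were higher (background 29.1%) and 4 lower (background 30.5%) in ESCs than in MEFs. From day 3 to day 6, 9 rose in BFP (background 2.94%). In ESCs 11 were lower than in BFP on day 10 (background 30.3%) and 11 lower than in Sm3CA (background 27.2%). There were 2 higher than in BFP and 1 higher than in Sm3CA, beside 2363 and 2041 of 10979 genes tested. Their summed level was 1407 to 1684 normalized counts on day 10 and 544 to 625 in ESCs. *Cdh1* was higher in Sm3CA than in BFP on day 8 (0.76 ± 0.19, adjusted p = 0.0443), where the libraries overlapped, and not called on day 10 (0.56 ± 0.20, adjusted p = 0.113). The day 8 call was lost without BFP replicate 2 or 3 or Sm3CA replicate 1 or 2, with 1 well per library, with only the groups compared and in a fit of all 30 libraries.

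The genes that mesenchymal factors act with were counted in the same fits. Of 28 other mesenchymal factors 11 were tested, of which 8 were lower (background 30.5%) and 1 higher (background 29.1%) in ESCs than in MEFs. Over the alternatives the number lower was 1 to 13, and it was 1 with 1 well per library. *Runx2*, the master factor of osteoblasts, and *Foxc1*, a forkhead factor of mesoderm, had no read in ESCs, at least 7.64-fold and at least 5.96-fold below MEFs. Of 17 partners, antagonists and corepressors 6 were higher and 8 lower in ESCs, beside 29.1% and 30.5% of all genes tested, such as *Ezh2*, a histone methyltransferase (2.28 ± 0.22), and *Rcor1*, the CoREST scaffold (-2.26 ± 0.40). *Id3*, an antagonist of E proteins, was lower in Sm3CA than in BFP on day 8 (-0.88 ± 0.22, adjusted p = 0.0356) and day 10 (-0.84 ± 0.22, adjusted p = 0.0194). It was not called on day 8 without BFP replicate 3 or Sm3CA replicate 2, with 1 well per library or with only the groups compared, nor on day 10 without BFP replicate 2 or 3 or Sm3CA replicate 2 or 3, nor on either day in a fit of all 30 libraries. Of 18 other cadherins and catenins 8 were tested, with 1 higher (background 29.1%) and 3 lower (background 30.5%) in ESCs than in MEFs. Among the 3 was *Ctnnd1*, which encodes p120-catenin (-0.83 ± 0.20).

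The mesenchymal effectors, 20 matrix, cytoskeletal and surface genes, were all lower in ESCs than in MEFs (background 30.5%). On day 10, 14 of 20 were lower in Sm3CA than in BFP beside 2 of 9 members (background 2.74%). The median log2 fold change was -1.29 for the effectors and -0.93 for the members, and the 2 lists were not tested against each other. The 20 effectors summed to 2169 to 7817 normalized counts in the day 10 libraries. Among the members, *Prrx1* had 259 reads in BFP and 104 in Sm3CA on day 10, but *Twist1* had 16 and 6 and *Twist2* 4 and 3. In members with so few reads a change of the same size was less likely to be called. The count of 14 was 8 to 16 over the alternatives, and 8 without BFP day 10 replicate 2. On day 8 the count of effectors was 4, where 67 of 10237 genes tested were lower. It was 2 without any 1 of BFP replicates 2 and 3 and Sm3CA replicates 1 and 2 (1 to 6 over all alternatives). *Acta2*, smooth muscle actin, had 145 ± 24.9 normalized counts in Sm3CA and 725 ± 79.6 in BFP on day 10 (SD, n = 3, -2.30 ± 0.26, adjusted p = 4.94e-07, edgeR). *Tagln*, an actin-binding protein (-1.90 ± 0.25, adjusted p = 6.12e-06), and *Postn*, a matrix protein (-1.69 ± 0.40, adjusted p = 0.00891), did not overlap either.

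**Figure D5:**
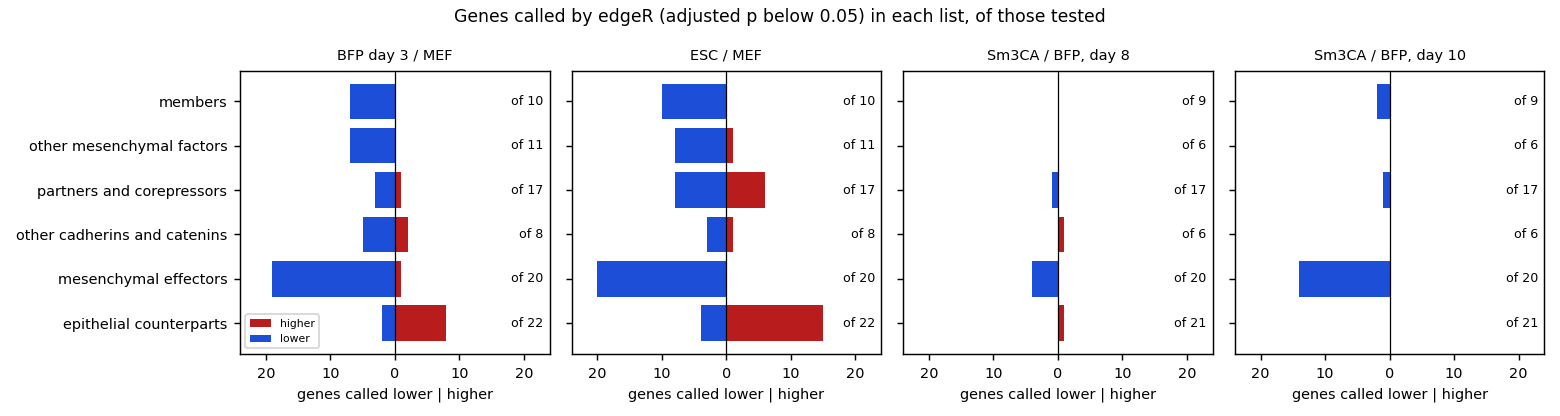
Number of genes called higher (to the right) or lower (to the left) by edgeR among the members and 5 other lists, for BFP day 3 against MEFs, ESCs against MEFs, and Sm3CA against BFP on days 8 and 10, with the number tested beside each bar. On day 10 the mesenchymal effectors have 14 of 20 genes lower in Sm3CA and the members 2 of 9 (background 2.74%). Their median log2 fold changes are -1.29 and -0.93.

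The courses of the members over the 10 groups were alike to different degrees. Pearson correlations between members, over log2(normalized count + 1) of 10 group means that share libraries and the MEF to ESC difference, ranged from 0.37 (*Zeb1* and *Tbx18*) to 0.96 (*Prrx1* and *Tbx18*), with a median of 0.70 over 45 pairs. Among all genes tested, those most like *Cdh11* were *Nrp1*, *Csf1* and *Thbs1* (0.996, 0.992 and 0.990), those most like *Prrx1* were *Ppp3ca*, *Fkbp7* and *Col4a1* (0.987, 0.986 and 0.986) and those most like *Zeb2* were *Cav2*, *Timp3* and *Hoxa7* (0.993, 0.991 and 0.990). For *Tbx18* they were *Zfp386*, *Igf1r* and *Antxr1* (0.972, 0.972 and 0.969), and for *Cdh2* *Nfil3*, *Srp14* and *Prkca* (0.977, 0.977 and 0.973).

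*Snai2* was nearest to *Ctsh*, *Slc39a13* and *Synpo* (0.986, 0.974 and 0.971), *Snai1* to *Unc5b*, *Hspb11* and *Spock3* (0.985, 0.983 and 0.979) and *Zeb1* to *Snap47*, *Kctd11* and *9830001H06Rik* (0.979, 0.971 and 0.967). *Twist1* had lower values, with *Nbea*, *Arhgdia* and *Flnc* (0.951, 0.942 and 0.936). *Twist2* was below 20 normalized counts in every group mean and was not ranked. These values describe 10 group means and were not tested.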

How the data were processed

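The authors deposited read counts per gene, neither normalized nor pooled, for 84 wells. The labels name mm10, Bowtie 0.12.9 and DESeq2 1.6.3, and the annotation and strand setting of the counting are not given in the sources used here. Transcripts on the opposite strand are annotated at *Twist2*, *Zeb1*, *Zeb2*, *Prrx1*, *Tbx18* and *Cdh2*, and without strand their reads cannot be told apart. Each well was mapped by its label, and wells of 1 replicate (3, or 2 on day 10) were added up. Positions are from GENCODE M21 (GRCm38).

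Counts were tested with edgeR 4.0.16 in R 4.3.3 (TMM, filterByExpr, quasi-likelihood test, Benjamini-Hochberg adjustment, threshold 0.05), after the scripts were tested on simulated data. MEFs, ESCs and steps over days were contrasted in a fit of 30 libraries (10979 genes tested), Sm3CA and BFP in a fit of 24 libraries (10237 genes tested). SEs are the log2 fold change over the square root of F, and fold values without a log are ratios of mean normalized counts (DESeq2 1.42.0 size factors). Folds against groups at 0 are lower bounds at 3 reads per library, and ratios with 1 to 3 reads in a group carry a 95% exact interval.

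Named genes were the members, *Smad3*, *Cdh1*, *Epcam*, genes among up to 4 per other list (called between vectors, then between ESCs and MEFs, by size of change), and the 3 genes most like each member whose own mean reached 20 normalized counts in some group. The members and lists were chosen with earlier results of these data known. Alternatives were DESeq2 size factors, the DESeq2 Wald test, no filter, only the groups compared, 1 well per library, each library left out and a replicate block. Per the series' design, replicate numbers pair the days within a vector series. Same-numbered libraries had correlations of their deviations from group means of 0.000773 in BFP and 0.0122 in Sm3CA (means of 18 pairs each). P-values measure the spread between these replicates, which the sources call biological.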

Additional observations from a re-analysis of the deposited data

Results flagged for a closer look

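*Zeb2* drew attention because its Sm3CA libraries all lay above the BFP libraries on day 3 and all below them on day 10. The ratio of the Sm3CA mean to the BFP mean was 1.45 on day 3 and 0.42 on day 10. The test of the difference itself, the interaction of vector and day, gave -1.80 ± 0.53 and an adjusted p of 0.0961 (edgeR), above the threshold. Without BFP day 10 replicate 1 it was -1.97 with an adjusted p of 0.0493, and over all alternatives the adjusted p ranged from 0.0493 to 0.754. *Zeb2* was not alone on day 3, where *Snai2* also lay wholly above the BFP libraries and *Zeb1* wholly below. On that day 579 of 10237 genes tested lay wholly above and 606 wholly below, and edgeR called no member. On day 10, 1219 genes lay wholly below and 899 wholly above.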

How the results depend on the processing

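Of 469 recomputed fold changes for 41 results on members, 443 kept their direction and their side of the threshold, 24 kept the direction but were no longer called, 2 became called, and none changed sign. With 1 well per library, 6 members were called in ESCs against MEFs, where 6 passed the filter, 0 in BFP day 6 against day 3, 3 in ESCs against Sm3CA day 10 and 1 in Sm3CA against BFP day 10. With only the groups compared there were 4 in BFP day 6 against day 3, 1 in Sm3CA day 8 against day 6, 3 in ESCs against BFP day 10 and 1 in ESCs against Sm3CA day 10. Without the filter there was 1 in Sm3CA day 8 against day 6 and 1 in Sm3CA against BFP day 8. The DESeq2 Wald test gave 1 in Sm3CA day 8 against day 6 and 1 in Sm3CA against BFP day 10, as did a fit of all 30 libraries for that day, chosen after seeing the data. The causes were not tested. With each library left out in turn, counts were 4 to 8 for BFP day 3 against MEFs, 6 to 8 for Sm3CA day 3 against MEFs, 0 to 1 for BFP day 6 against day 3, 5 to 6 for ESCs against BFP day 10, 0 to 3 for Sm3CA against BFP day 10 and 0 to 1 for the change from day 3 to day 10, and did not move for the other contrasts. With the replicate block on the paired days 1 member (*Prrx1*) was called in Sm3CA day 8 against day 6, and the block changed no other count. Between vectors, and between MEFs and ESCs, libraries share only a number (mean correlations -0.0137 over 12 pairs and -0.0587 over 3), and the block left 2 members called on day 10 and 10 in ESCs. Depth limits *Snai1*, *Snai2*, *Twist1* and *Twist2*, which had later group means near the level of 3 reads.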
